A study of Mus musculus with 18 samples.

Results

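The genes described are 33 genes of glucose breakdown and of the response to hypoxia-inducible factor 1 (HIF-1), taken by name from the 55401 genes counted in each library. RNA was sequenced from LPS-treated mouse macrophages in 18 libraries that formed 6 groups of 3, all of strain C57BL/6J by their labels. All groups had 5 ng/ml lipopolysaccharide (LPS), the bacterial wall component that activates macrophages, for the last 6 h. WT and Mut were peritoneal macrophages of wild-type mice and of mice with a mutation in Smim30, which encodes a small membrane protein. Mut AdCtrl and Mut AdSmim30 were mutant macrophages to which a control adenovirus or one that overexpresses Smim30 was added 6 h after plating; it stayed for 24 h, and LPS followed. The siCtrl and siSmim30 groups were IC-21 cells, an established mouse peritoneal macrophage line, with a control (labelled siControl) or with Smim30 siRNA transfected for 24 h, again before LPS. The kind of mutation, the promoter in the virus, and whether replicates came from separate mice or cultures were not given, so p-values measure the spread between these libraries, which may be technical.

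Glycolysis splits glucose into pyruvate and yields ATP without oxygen; lactate dehydrogenase and the lactate carriers then remove its product. HIF-1 is a transcription factor whose alpha subunit, encoded by Hif1a, is marked for destruction by prolyl hydroxylases when oxygen is present. Macrophages activated with LPS are known to raise glycolysis, and HIF-1 alpha is also controlled there through protein stability, which RNA counts do not measure.

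Read pairs assigned to genes numbered 6855245 to 13456857 per library, and the level that 3 counts represent was 0.223 to 0.438 CPM (a gene's count relative to all assigned pairs of its library). The 10 macrophage markers were detected in every group, with a summed level of 10606 to 12539 CPM in primary cells and 3573 to 3810 CPM in IC-21. Of the large peritoneal macrophage markers, Gata6, Timd4 and Prg4 had no counts in IC-21. Smim30 was read as the gene listed as 2610001J05Rik, a match that the reference tables used here do not give. Its RNA was lower by 0.97 on the log2 scale (SE 0.12) with the siRNA, with an adjusted p of 6.17e-08, and higher by 0.28 (SE 0.062) with the virus, with an adjusted p of 0.0052, both by edgeR's quasi-likelihood test. In Mut it differed from WT by 0.01 (SE 0.081, adjusted p = 0.966), and whole-gene counts cannot test a mutation. In bulk RNA, fewer cells of a type and less RNA per cell cannot be told apart.

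Levels between genes were compared as RPKM, which is CPM per kb of the exonic length over all annotated exons. In WT, aldolase A (Aldoa) stood highest at 360 ± 14 RPKM (SD, n = 3), followed by hexokinase 3 (Hk3) at 223 ± 10 and pyruvate kinase (Pkm) at 125 ± 6.7. Lactate dehydrogenase A (Ldha) was at 82.9 ± 3.2 RPKM. Phosphoglycerate mutase (Pgam1, 54.8 ± 1.9) and the glucose transporter Slc2a1 (52.7 ± 1.2) came next and did not differ beyond their spread. Hif1a itself was at 47.8 ± 1.3 RPKM, in the upper part of the order. At the low end stood the HIF target Ankrd37 (0.1 ± 0.0 RPKM), the muscle form of phosphofructokinase Pfkm (0.9 ± 0.3) and the collagen prolyl hydroxylase subunit P4ha2 (0.6 ± 0.1). Ankrd37 had too few counts to be tested in any comparison. Gapdh, Pgk1, Eno1, Ldha, Tpi1, Pkm, Aldoa and Pgam1 have processed pseudogenes or near-copies, and pairs that matched more than 1 place were not counted, so their levels, and differences between them, are uncertain.

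**Figure D1:**
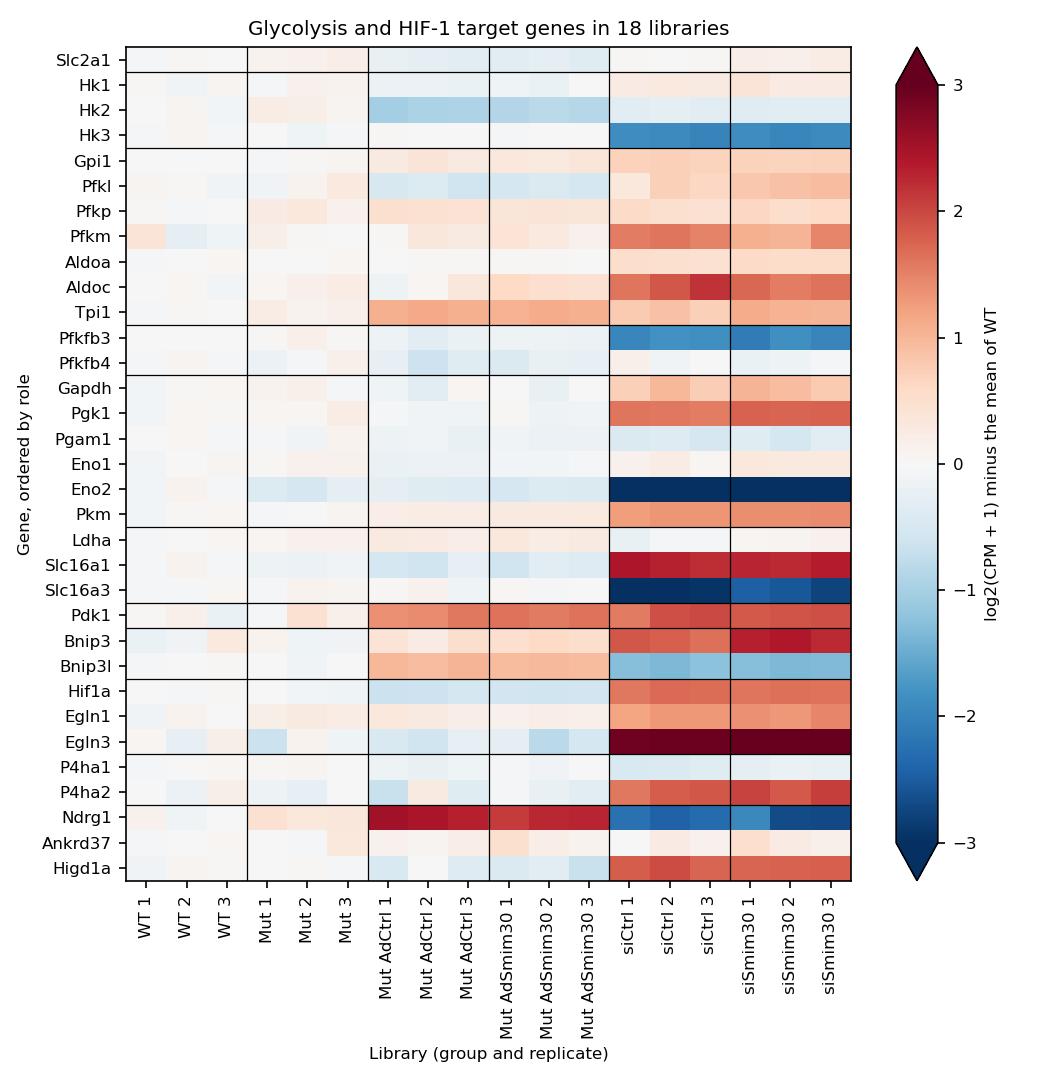
Each row is a gene, ordered by role, and each column is a library; colour gives log2(CPM + 1) minus the mean of WT, with values beyond -3 and 3 shown at the end colours. The 6 IC-21 libraries at the right differ most, Eno2 is at 0 counts there, and Ndrg1 is highest in the 6 virus libraries.

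Knockdown of Smim30 in IC-21 cells raised 7 of the 31 genes tested and lowered none. Across all 13576 genes tested 3.48% were called, 2.39% higher and 1.09% lower. The members were listed with earlier results of these data known, so their share beside that of all genes is no test of the list. At an unadjusted p under 0.05 edgeR had 12 members higher and 2 lower, and DESeq2 called 8 higher and none lower. The percentages above are for the adjusted p of edgeR, and shares of all genes under these other criteria are not given here. The 7 were the glucose transporter Slc2a1, triosephosphate isomerase (Tpi1), phosphoglycerate kinase (Pgk1), enolase 1 (Eno1), Pkm, Ldha and the mitophagy receptor Bnip3. The median change over the 31 genes was 0.09 on the log2 scale, against -0.002 over all genes, with 22 above 0 and 9 below. Among genes of at least 50 CPM, 6 of 20 members were higher and none lower, where 5.81% of all 4801 such genes were higher and 2.46% lower; that level limit was chosen after the values were seen. The summed level of the 33 genes was 6699 to 6899 CPM in siCtrl and 7139 to 7221 CPM in siSmim30. Of the 17 glycolytic enzymes with lactate dehydrogenase, 5 of the 16 tested were called, all higher.

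Bnip3 encodes a receptor that sends mitochondria to autophagy. Its level was 25.5, 24.2 and 21.9 CPM in the siCtrl libraries and 35.5, 37.6 and 33.1 CPM in siSmim30, so the groups did not overlap. The log2 fold change was 0.59 (SE 0.091), or 1.51-fold, with an adjusted p of 5.29e-06. Tpi1, which interconverts the triose phosphates, was at 214, 226 and 202 CPM in siCtrl and 266, 255 and 252 CPM in siSmim30. The change was 0.28 (SE 0.039) with an adjusted p of 6.95e-07, and every siSmim30 library lay above every siCtrl library. Pgk1, the first ATP-yielding step, was at 265, 262 and 253 CPM in siCtrl and 295, 293 and 298 CPM in siSmim30. The groups were apart, with a change of 0.20 (SE 0.035, adjusted p = 6.73e-05).

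Ldha, which turns pyruvate into lactate, was at 236, 266 and 267 CPM in siCtrl and 284, 289 and 303 CPM in siSmim30. Its change was 0.20 (SE 0.040, adjusted p = 0.000857), and replicate 1 of siCtrl was the lowest library. Slc2a1, the main glucose transporter of activated macrophages, was at 191, 182 and 189 CPM in siCtrl and 211, 204 and 215 CPM in siSmim30. It changed by 0.18 (SE 0.039, adjusted p = 0.00196), and the groups did not overlap. For Eno1, siCtrl had 187, 197 and 175 CPM and siSmim30 had 211, 207 and 209 CPM. The change was 0.18 (SE 0.041, adjusted p = 0.00342); without siCtrl replicate 3 the adjusted p was 0.0663 and the call was lost. Pkm, whose splice forms are not separated by gene counts, was at 1492, 1568 and 1558 CPM in siCtrl and 1632, 1649.9 and 1679.7 CPM in siSmim30. It changed by 0.12 (SE 0.028, adjusted p = 0.00414), the smallest of the 7, and a fit of all 18 libraries gave an adjusted p of 0.117. All adjusted p-values in these paragraphs are from edgeR's quasi-likelihood test with Benjamini-Hochberg adjustment.

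HIF-1 is known to bind sites with the core letters ACGTG, so these were looked for in the members' promoters. The 250 bases before the RefSeq start (build GRCm38.p6) were searched on both strands, so the palindrome CACGTG counts as 2 overlapping matches. The letters occurred before 18.5% of 27025 genes, 19 of the 31 members with an entry, 5 of the 7 higher with the siRNA and 13 of the 22 tested and not called. These are 61.3% of members, 71.4% of those higher and 59.1% of those not called. The difference between called and uncalled members was not tested. Because the members were listed partly as HIF-1 targets, their share beside that of all genes is no test of the siRNA effect. Sequences are shown for 4 genes raised by the siRNA whose promoters carry the letters, and for Tpi1, raised as well, whose promoter does not. Matches are in capitals, and each is given 5′ to 3′ on the gene's strand. They lie at chr4:119108495-119108744 (Slc2a1, plus strand), chrX:106186850-106187099 (Pgk1, plus), chr7:46845554-46845803 (Ldha, plus), chr7:138909507-138909756 (Bnip3, minus) and chr6:124814159-124814408 (Tpi1, minus).
Slc2a1: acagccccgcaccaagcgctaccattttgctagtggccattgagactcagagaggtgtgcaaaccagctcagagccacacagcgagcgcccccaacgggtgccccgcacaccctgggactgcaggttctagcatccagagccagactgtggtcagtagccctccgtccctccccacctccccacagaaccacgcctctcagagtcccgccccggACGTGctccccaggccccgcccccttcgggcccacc
Pgk1: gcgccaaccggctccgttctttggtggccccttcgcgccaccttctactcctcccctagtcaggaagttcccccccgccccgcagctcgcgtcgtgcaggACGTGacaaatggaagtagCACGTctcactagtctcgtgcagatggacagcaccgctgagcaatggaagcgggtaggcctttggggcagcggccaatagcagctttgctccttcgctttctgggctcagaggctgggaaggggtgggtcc
Ldha: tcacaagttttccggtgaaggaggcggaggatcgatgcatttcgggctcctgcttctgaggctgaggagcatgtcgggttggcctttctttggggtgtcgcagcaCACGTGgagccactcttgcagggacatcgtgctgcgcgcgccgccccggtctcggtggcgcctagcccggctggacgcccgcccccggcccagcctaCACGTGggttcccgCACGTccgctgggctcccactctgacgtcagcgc
Bnip3: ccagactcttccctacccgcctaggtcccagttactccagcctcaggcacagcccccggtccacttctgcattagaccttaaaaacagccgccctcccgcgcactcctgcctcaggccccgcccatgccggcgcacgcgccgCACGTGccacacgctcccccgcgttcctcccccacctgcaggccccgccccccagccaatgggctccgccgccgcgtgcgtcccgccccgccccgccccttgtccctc
Tpi1: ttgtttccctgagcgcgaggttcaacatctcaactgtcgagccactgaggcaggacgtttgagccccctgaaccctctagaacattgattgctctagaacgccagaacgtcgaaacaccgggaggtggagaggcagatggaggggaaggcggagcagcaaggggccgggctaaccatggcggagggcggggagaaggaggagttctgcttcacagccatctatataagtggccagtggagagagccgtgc
Ldha held 5 matches, Pgk1 and Bnip3 2 each and Slc2a1 1, while Tpi1, with the lowest adjusted p of the 7, held none. A match is a run of letters and not a binding site, and no factor's binding was measured here.

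Hif1a and its prolyl hydroxylases did not pass the test with the siRNA. Hif1a was at 844, 914 and 905 CPM in siCtrl and 858, 895 and 881 CPM in siSmim30, with a change of 0.00 (95% interval -0.06 to 0.06). The hydroxylase genes Egln1 and Egln3 had changes of 0.11 each, with adjusted p-values of 0.422 and 0.511. Hk2, the inducible hexokinase, was at 167, 174 and 165 CPM in siCtrl and 164, 169 and 169 CPM in siSmim30, a change of 0.001 (95% interval -0.08 to 0.08). Pfkfb3, which makes the activator of phosphofructokinase, was at 16.8, 18.6 and 18.3 CPM against 15.2, 18.2 and 16.3 CPM, and its change of -0.10 had an interval of -0.33 to 0.13. Aldoa (0.09, adjusted p = 0.0564), the lactate exporter Slc16a3 (0.62, adjusted p = 0.0683), Pfkl (0.31, adjusted p = 0.0709) and P4ha1 (0.20, adjusted p = 0.0728) came close without passing. Eno2 had no counts and was not tested.

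**Figure D2:**
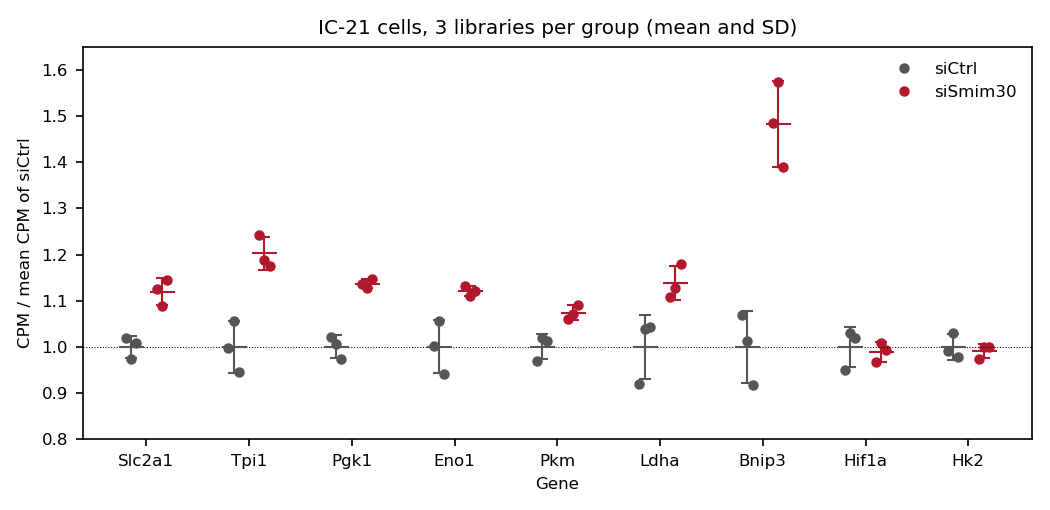
Points are libraries of IC-21 cells, given as CPM over the mean of siCtrl, with mean and SD marked; the vertical axis starts at 0.8. The 7 genes higher with the siRNA are at the left, and Hif1a and Hk2, which did not pass, are at the right.

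Around these genes, 38 further HIF-related genes, 22 further genes of glycolysis, 13 of mitochondrial pyruvate use and 11 of the pentose phosphate pathway were counted. With the siRNA, 3 of the 29 HIF-related genes tested were higher and 1 lower. The higher ones were the factor-inhibiting hydroxylase Hif1an (0.26, SE 0.063, adjusted p = 0.00648), Ero1l, which oxidises proteins in the endoplasmic reticulum (0.16, SE 0.043, adjusted p = 0.0168) and Wsb1 (0.13, SE 0.039, adjusted p = 0.041). Cited2, a competitor of HIF-1 for its coactivator, was lower at -0.19 (SE 0.054, adjusted p = 0.0298). DESeq2 called 1 HIF-related gene higher and none lower, and none of the further glycolysis and pyruvate genes. The median change was 0.07 over the HIF-related genes, against -0.002 over all genes. The phosphoglucomutase Pgm2 was the single call among 12 further glycolysis genes, higher by 0.32 (SE 0.084, adjusted p = 0.0162). Pyruvate carboxylase (Pcx), of 12 pyruvate genes, was lower at -0.15 (SE 0.046, adjusted p = 0.047), and edgeR called none of 11 pentose phosphate genes (1 lower at an unadjusted p under 0.05, none with DESeq2). Medians of the glycolysis, pyruvate and pentose phosphate lists were 0.001, -0.03 and -0.04. Between the same libraries 1 of 10 macrophage markers was lower (Cd68, -0.10, SE 0.031), and of 5 large peritoneal macrophage markers tested 1 was higher (Saa3, 0.35, SE 0.076). The large peritoneal markers summed to 66.7 to 73.6 CPM in siCtrl and 75.4 to 87.9 CPM in siSmim30. Sums were lower without overlap for B cell markers (57.0 to 62.3 and 48.8 to 55.9 CPM), dendritic cell markers (9.04 to 10.6 and 7.76 to 8.88 CPM) and granulocyte and mast cell markers (4.08 to 5.50 and 3.34 to 3.82 CPM), though the 4 genes tested in these lists, Cd22, S100a8, Zbtb46 and Batf3, had adjusted p-values of 0.159, 0.371, 0.499 and 0.918 by edgeR. Only 1 of 8 B cell markers reached 3 counts in a library of either group, so that sum was nearly all Cd22 (means of 59.2 and 51.7 CPM). Of 9 granulocyte and mast cell markers, 3 reached it in siCtrl and 1 in siSmim30, with S100a8 at 4.77 and 3.49 CPM. Of 7 dendritic cell markers, 3 did in each group. The part of these markers in the changes of the 7 genes was not tested. Markers of fibroblasts, T cells and erythroid cells were too low to test in IC-21, and ribosomal RNA shares overlapped (0.195 to 0.414% in siCtrl and 0.201 to 0.484% in siSmim30).

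In primary cells the Smim30 mutation left most of the genes without a detectable change. In Mut against WT, 2 of 32 genes were higher and 1 lower, where 6.3% of the 12500 genes tested were called, 3.68% higher and 2.62% lower, so the share is near the background. The genes were the platelet phosphofructokinase Pfkp, the HIF target Ndrg1 and the neuronal enolase Eno2. The median was 0.04 on the log2 scale, against -0.006 over all genes.

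Eno2, which carries out the same step as Eno1, was at 92.3, 105.5 and 94.6 CPM in WT and 72.9, 68.1 and 80.4 CPM in Mut. All Mut libraries lay below all WT libraries, and Eno2 fell by 0.41 on the log2 scale (SE 0.068, adjusted p = 0.000201). Its share of summed enolase RPKM was 39.6 ± 1.9% in WT and 31.7 ± 1.9% in Mut (SD, n = 3), and the call held in all 12 alternative fits. Pfkp was at 121, 115 and 118 CPM in WT and 139.5, 146 and 129 CPM in Mut. The groups did not overlap, and the change was 0.21 (SE 0.056, adjusted p = 0.0155). The adjusted p was 0.147 without Mut replicate 2, 0.0793 without the second WT library and 0.0509 without the third, and the call was lost each time.

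Ndrg1, a gene induced by hypoxia and cell stress, was at 20.5, 16.9 and 18.9 CPM in WT and 26.0, 23.7 and 23.8 CPM in Mut. The groups were apart, with a change of 0.37 (SE 0.105, adjusted p = 0.0267). The call was lost with DESeq2 (0.0791) and when replicate 2 or 3 of WT or replicate 1 or 2 of Mut was left out (0.0591 to 0.146). Slc2a1 was at 182, 189 and 183 CPM in WT and 199, 201 and 211 CPM in Mut, without overlap, but its change of 0.13 had an adjusted p of 0.123. Hk2 was at 209.9, 224 and 198 CPM in WT and 244, 237 and 224 CPM in Mut, a change of 0.15 with an adjusted p of 0.0996. Hif1a (-0.09), Pfkfb3 (0.07) and Ldha (0.10) had adjusted p-values of 0.358, 0.657 and 0.291.

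Of 32 further HIF-related genes tested, edgeR called 2 higher in Mut, Rbpj among them (0.26, SE 0.056, adjusted p = 0.00363), and 2 lower. The lower ones were the transferrin receptor Tfrc (-0.50, SE 0.055, adjusted p = 5.69e-07) and Vegfa (-0.39, SE 0.118, adjusted p = 0.0421). DESeq2 called 2 of this list higher and 1 lower. None of 14 further glycolysis, 12 pyruvate and 11 pentose phosphate genes was called by edgeR or DESeq2, and 1 of each list had an unadjusted p under 0.05. Between the same libraries, summed large peritoneal macrophage markers were 2540 to 2622 CPM in WT and 2253 to 2439 CPM in Mut, with 3 of 9 tested lower. B cell markers were 83.8 to 93.4 and 61.7 to 64.5 CPM, with 1 of 5 tested lower (Cd22, -0.51, SE 0.071). Of 10 macrophage markers, Cd14 (0.38, SE 0.047) and Fcgr1 (1.21, SE 0.253) were higher and Lyz2 (-0.29, SE 0.043) was lower. Dendritic cell markers were 12.8 to 13.9 and 24.5 to 31.0 CPM, with 2 of 4 tested higher. These were Ccl22 (1.32, SE 0.163) and Batf3 (1.47, SE 0.233). By edgeR, Zbtb46 (0.02, adjusted p = 0.989) and Ccr7 (0.30, adjusted p = 0.789) were not called. Ribosomal RNA was 1.74 to 2.49% and 0.399 to 1.03% of counts. The part of these markers and of ribosomal RNA in the changes of Eno2, Pfkp and Ndrg1 was not tested.

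Adding Smim30 by virus to mutant macrophages changed 1 of the 32 genes, where 1.43% of 12701 genes were called, 0.583% higher and 0.842% lower. The median change was 0.02, against 0.0 over all genes. Ndrg1 was at 111, 107 and 98.8 CPM in Mut AdCtrl and 83.8, 92.8 and 95.6 CPM in Mut AdSmim30. The groups did not overlap, though the nearest libraries were close, and Ndrg1 fell by 0.21 (SE 0.048, adjusted p = 0.00599). With DESeq2 and with a fit of all 18 libraries the adjusted p was 0.101 and 0.115. It was 0.135 without Mut AdSmim30 replicate 1, 0.12 without the first Mut AdCtrl library and 0.0746 without the second, so the call was lost in each. Without Mut AdCtrl replicate 3, by contrast, 3 of the genes were called.

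Summed fibroblast and mesothelial markers were 95.5 to 116 CPM in Mut AdCtrl and 52.1 to 59.7 CPM in Mut AdSmim30, with 7 of 8 tested lower and Msln and Krt19 at 0 in the latter; their part in the Ndrg1 change was not tested. Hk2 was at 102, 108 and 109.5 CPM with the control virus and 113, 120.4 and 116 CPM with Smim30, a change of 0.13 with an adjusted p of 0.117. Eno1 (0.12, adjusted p = 0.111) and aldolase C (Aldoc, 0.49, adjusted p = 0.098) also had groups apart without passing. Hif1a changed by 0.02 (95% interval -0.05 to 0.09), Slc2a1 by -0.05 (-0.13 to 0.03), Pfkfb3 by 0.06 (-0.05 to 0.18) and Ldha by 0.03 (-0.03 to 0.10). In the other lists edgeR and DESeq2 called none of 33 HIF-related, 16 glycolysis, 12 pyruvate and 11 pentose phosphate genes, of which 6, 1, 2 and 2 had an unadjusted p under 0.05.

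**Figure D3:**
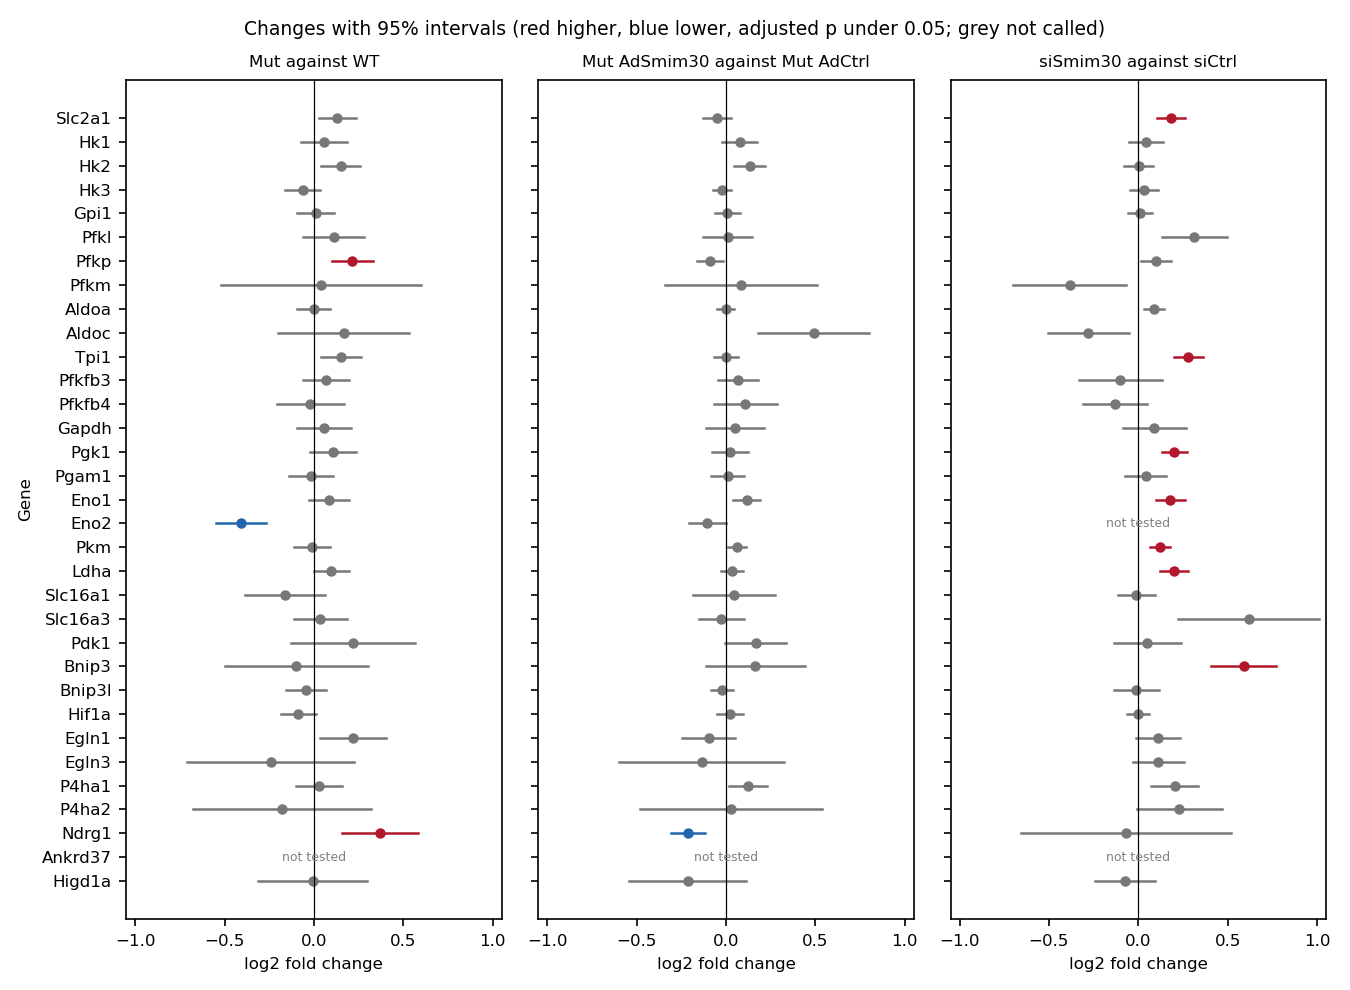
Points are log2 fold changes and lines their 95% intervals, in 1 panel per perturbation; red marks genes called higher, blue genes called lower and grey genes not called. Coloured genes number 7 in the siRNA panel, 3 in the mutation panel and 1 in the virus panel; these counts are no test of a difference between perturbations.

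Differences between perturbations were tested as interactions. The mutation effect minus the siRNA effect passed for 1 of 32 genes, where 2.51% of 14804 genes did, 1.25% with a higher and 1.26% with a lower value. That gene was Bnip3, at 5.31, 5.74 and 7.95 CPM in WT and 6.79, 5.65 and 5.72 CPM in Mut, beside the IC-21 values above. The difference was -0.69 (SE 0.201, 95% interval -1.10 to -0.29, adjusted p = 0.0486), and it was lost in 11 of 17 alternative fits, with adjusted p-values from 0.0194 to 0.324. The other 6 genes raised by the siRNA were not shown to respond otherwise to the mutation, their differences running from -0.04 for Slc2a1 (adjusted p = 0.878) to -0.13 for Pkm (adjusted p = 0.43). Eno2, without counts in IC-21, gives no siRNA effect to compare. Of 33 HIF-related genes, Tfrc (-0.50, SE 0.077) and Hif1an (-0.32, SE 0.090) passed.

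The Smim30 virus effect minus the mutation effect passed for 3 of 32 genes, where 3.84% of 13422 genes did, 1.53% with a higher and 2.31% with a lower value; its 2 sides share no libraries. Ndrg1 differed by -0.58 (SE 0.109, adjusted p = 0.000471) and Pfkp by -0.30 (SE 0.066, adjusted p = 0.00292), and both held in all 18 alternative fits. Both were higher in Mut than in WT, and lower, or for Pfkp -0.09 with an adjusted p of 0.327, when Smim30 was added. Pfkp was at 165, 162 and 161 CPM in Mut AdCtrl and 151, 154 and 152 CPM in Mut AdSmim30, without overlap. Eno2 differed by 0.30 (SE 0.086, adjusted p = 0.0366), a call lost in 10 of 18 alternatives. It was at 81.2, 75.4 and 73.6 CPM in Mut AdCtrl and 68.7, 72.9 and 72.0 CPM in Mut AdSmim30. Its mean was 97.5 CPM in WT, 73.8 in Mut, 76.7 in Mut AdCtrl and 71.2 in Mut AdSmim30. Eno2 was thus lower on both sides, without a call between the virus groups, and its difference is not a reversal. Of 34 HIF-related genes, Tfrc (0.48, SE 0.067), Arnt2 (-2.05, SE 0.58) and Rbpj (-0.22, SE 0.066) passed. Their adjusted p-values by edgeR were 7.26e-06, 0.0312 and 0.0436, and DESeq2 called 1 higher and 1 lower. Arnt2 had 0.242 CPM in WT, near the level of 3 counts, and 1.11 CPM in Mut, so its value is uncertain. Between the virus groups it changed by 0.08 (adjusted p = 0.953 by edgeR). Ndrg1 lies at chr15:66929318-66969640 and Pfkp at chr13:6579768-6648777, both on the minus strand of GRCm38.

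**Figure D4:**
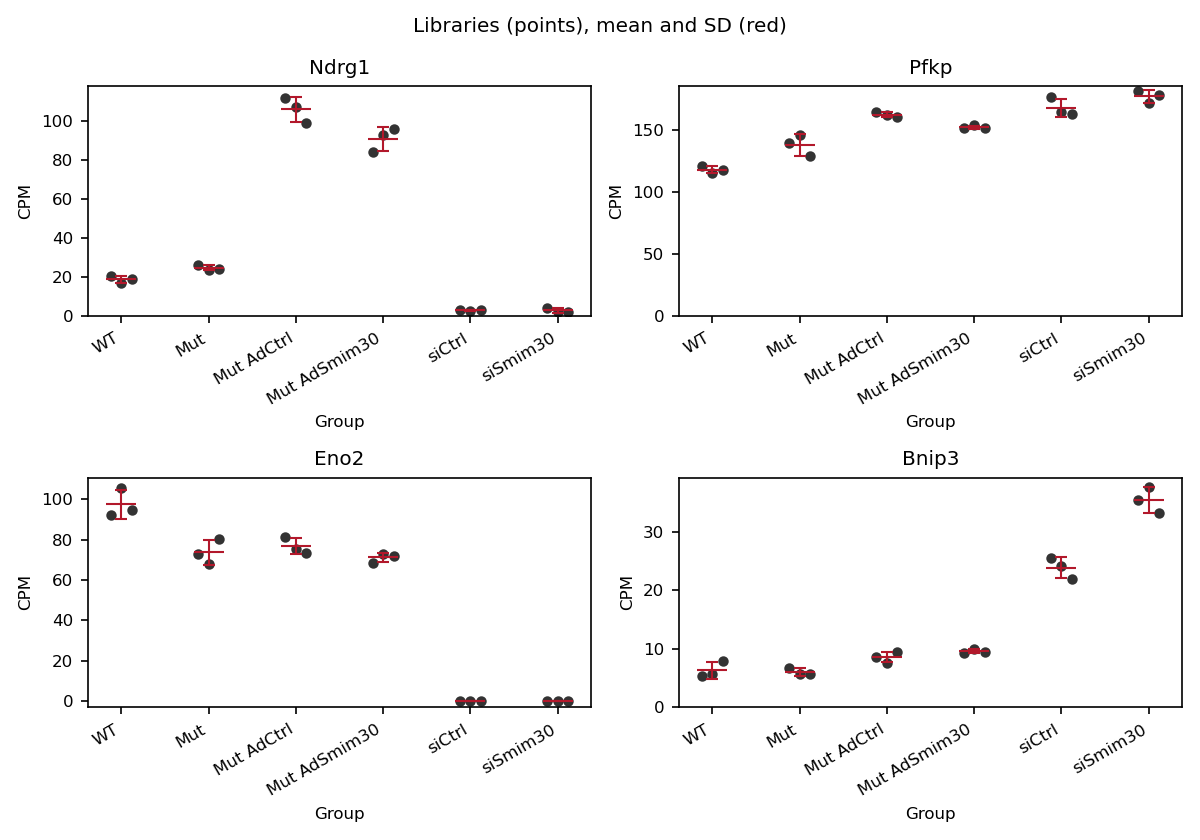
Points are the CPM of single libraries in the 6 groups, with the mean and SD in red, for the 4 genes that passed an interaction test. Ndrg1 is at 16.9 to 26.0 CPM in uninfected primary cells, 83.8 to 111 CPM in the virus groups and 2.00 to 4.18 CPM in IC-21, and Eno2 is at 0 in IC-21.

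Mutant cells with the control virus differed from uninfected mutant cells in 21 of 32 genes, 8 higher and 13 lower, where 53.6% of 12798 genes were called, 27.1% higher and 26.5% lower. The virus and anything else that differed between the infected and uninfected cultures cannot be told apart. This comparison shares the Mut libraries with Mut against WT. The median of the 32 genes was -0.13, against -0.001 over all genes. By role, Pdk1 and both mitophagy receptors were higher. The glucose transporter, 2 of 3 hexokinases, both bifunctional regulators of phosphofructokinase and 4 of the 6 lower glycolytic enzymes were lower. Of the lower enzymes 1, Pkm, was higher, and of 7 upper glycolytic enzymes 3 were higher and 1 lower. Over the 17 glycolytic enzymes with lactate dehydrogenase the median was -0.01, with 8 above 0 and 9 below. The calls of Gapdh (lower) and Bnip3 (higher) were lost in 6 and 4 of 12 alternative fits.

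Ndrg1 was 4.23-fold higher, at 26.0, 23.7 and 23.8 CPM in Mut and 111, 107 and 98.8 CPM in Mut AdCtrl. Pdk1, a kinase that inhibits pyruvate dehydrogenase, was 2.48-fold higher, from 7.42, 10.8 and 8.49 CPM to 21.3, 21.8 and 24.8 CPM. Both genes had groups far apart. The mitophagy receptor Bnip3l was 1.98-fold and Tpi1 1.86-fold higher, Bnip3 was higher by 0.48 and Gpi1 by 0.26 on the log2 scale. Hk2 was at 244, 237 and 224 CPM in Mut and 102, 108 and 109.5 CPM in Mut AdCtrl, and fell by 1.17 on the log2 scale (SE 0.050, adjusted p = 5.87e-19). Hif1a was at 278, 266 and 259 CPM in Mut and 181, 183 and 194 CPM in Mut AdCtrl, and fell by 0.56 (SE 0.046, adjusted p = 7.09e-12). Pfkl fell by 0.66, Slc2a1 by 0.45, Pfkfb4 by 0.43 and the lactate carrier Slc16a1 by 0.36. Pfkfb3 was at 69.3, 75.5 and 69.5 CPM in Mut and 60.3, 54.1 and 58.8 CPM in Mut AdCtrl. Ldha, at 285, 302 and 299.6 CPM and then 332, 328 and 313 CPM, had an adjusted p of 0.0503.

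Of 34 further HIF-related genes tested, 15 were higher and 12 lower. The largest changes were Zfp395 (4.56-fold) and Hilpda (3.96-fold), which were higher, and the adenylate kinase Ak4, lower by 2.94 on the log2 scale. Of 16 further glycolysis genes 7 were higher and 4 lower, led by Ldhd (0.190 CPM in Mut and 1.52 CPM in Mut AdCtrl), the transporter Slc2a6, lower by 1.93, and Slc2a3 (3.70-fold). Of 12 pyruvate genes 2 were higher and 4 lower, led by Pcx, lower by 2.60, Pdk2 (4.31-fold) and Pdp1 (1.54-fold). Of 11 pentose phosphate genes 1 was higher and 5 lower, led by H6pd, lower by 1.14, Pgd, lower by 1.09, and Rpe, lower by 0.44. Fibroblast and mesothelial markers summed to 268 to 296 CPM in Mut and 95.5 to 116 CPM in Mut AdCtrl, with 8 of 8 tested lower, and large peritoneal macrophage markers to 2253 to 2439 and 1343 to 1396 CPM. Of 9 of the latter tested, 2 were higher, Cd93 (3.71-fold) and Icam2 (2.02-fold), and 5 lower, F10 among them at 1268 CPM in Mut and 137 CPM in Mut AdCtrl. Of 10 macrophage markers 4 were higher and 3 lower. For all these markers, their part in these changes was not tested.

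IC-21 cells with control siRNA differed from WT primary cells in 28 of 32 genes, 12 higher and 16 lower, where 80.3% of 14066 genes were called, 40.1% higher and 40.2% lower. Cell source and transfection cannot be told apart, and the WT libraries are shared with Mut against WT. Scaling changed directions here, and in none of the other 6 comparisons for a called member. The composition factors were 0.779 to 0.789 in WT and 1.27 to 1.29 in siCtrl, and without them the median of all genes moved from 0.01 to 0.72 and the members called were 20 higher and 9 lower. Of the 28 called, 22 kept their direction and 6 did not.

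Among those that kept it, the HIF prolyl hydroxylase Egln3 was higher by 2.42, Slc16a1 by 1.67, Aldoc by 1.38, P4ha2 by 1.29, Pdk1 by 1.28 and the mitochondrial protein Higd1a by 1.25. Slc16a3 fell by 4.05, Ndrg1 by 3.38, Hk3 by 2.64, Pfkfb3 by 2.61 and Bnip3l by 2.01. Hif1a was at 285, 273 and 288 CPM in WT and 844, 914 and 905 CPM in siCtrl and was higher by 0.95 (SE 0.045). Pkm, Pgk1, Egln1, Pfkm and Bnip3 were also higher and Hk2, Pgam1, P4ha1 and Ldha lower under both scalings, though Ldha was no longer called without the factor (-0.10, adjusted p = 0.0555). Slc2a1, Hk1, Pfkp, Aldoa, Pfkfb4 and Eno1 were called lower with the factor and had changes above 0 without it. Gpi1, Pfkl, Tpi1 and Gapdh were not called with the factor. Egln1, at 26.3 CPM in WT and 64.8 CPM in siCtrl, is the general HIF hydroxylase.

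Eno2 had 97.5 CPM in WT and no counts in any of the 6 IC-21 libraries, so it was at least 223-fold lower, taking 3 counts per library as the floor. It lies at chr6:124760053-124769673 (minus strand, GRCm38). Its neighbours had counts in IC-21: Atn1, 3529 bases away, had 567, Ptpn6 7221 and Tpi1 12282 over the 6 libraries. Of the further lists, 13 of 33 HIF-related genes were higher and 16 lower, 6 and 7 of 14 glycolysis genes, 6 and 5 of 12 pyruvate genes, and 5 and 3 of 11 pentose phosphate genes. These directions, too, rest on the composition factor. Pgam5, Vhl and Pdha1, for example, were called lower, though their CPM was 42.1, 20.4 and 62.2 in WT and 55.7, 26.3 and 79.6 in siCtrl. Vegfa, Adm and Ak4, at 20.4, 3.11 and 26.4 CPM in WT, had no counts in siCtrl, and Slc2a6 went from 591 to 0.297 CPM. Pcx was higher by 3.15 and Pfkfb1 by 3.10, and H6pd was lower by 1.61.

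Shares within an enzyme family do not depend on the scaling of libraries. Hk3 held 82.8 ± 0.33% of hexokinase RPKM in WT, 89.0 ± 0.30% in Mut AdCtrl and 58.4 ± 1.1% in siCtrl, while Hk2 held 13.1 ± 0.36, 7.08 ± 0.31 and 28.2 ± 0.65%. Among lactate carriers, Slc16a1 held 32.8 ± 1.8% in WT and 96.3 ± 0.88% in siCtrl. Pfkfb3 held 57.6 ± 1.4% of its pair with Pfkfb4 in WT and 26.3 ± 2.7% in siCtrl, and Egln3 20.8 ± 3.9 and 48.5 ± 1.0% of its pair with Egln1. Bnip3 held 6.51 ± 1.2% of its pair with Bnip3l in WT, 39.4 ± 2.6% in siCtrl and 49.6 ± 1.8% in siSmim30. The IC-21 libraries lay apart from all primary libraries in each of these shares. The Pfkl share of phosphofructokinase was otherwise, at 46.8 ± 1.6% in WT, 44.9 ± 4.6% in Mut and 44.5 ± 4.4% in siCtrl, where libraries overlapped. It was lower in the virus groups, at 29.9 to 32.4% in Mut AdCtrl and 31.9 to 33.4% in Mut AdSmim30. Pfkm, a gene of few counts, held 10.7 to 11.8% in siCtrl, 6.95 to 9.15% in siSmim30, 3.89 to 6.54% in WT and 5.62 to 7.01% in Mut AdSmim30.

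**Figure D5:**
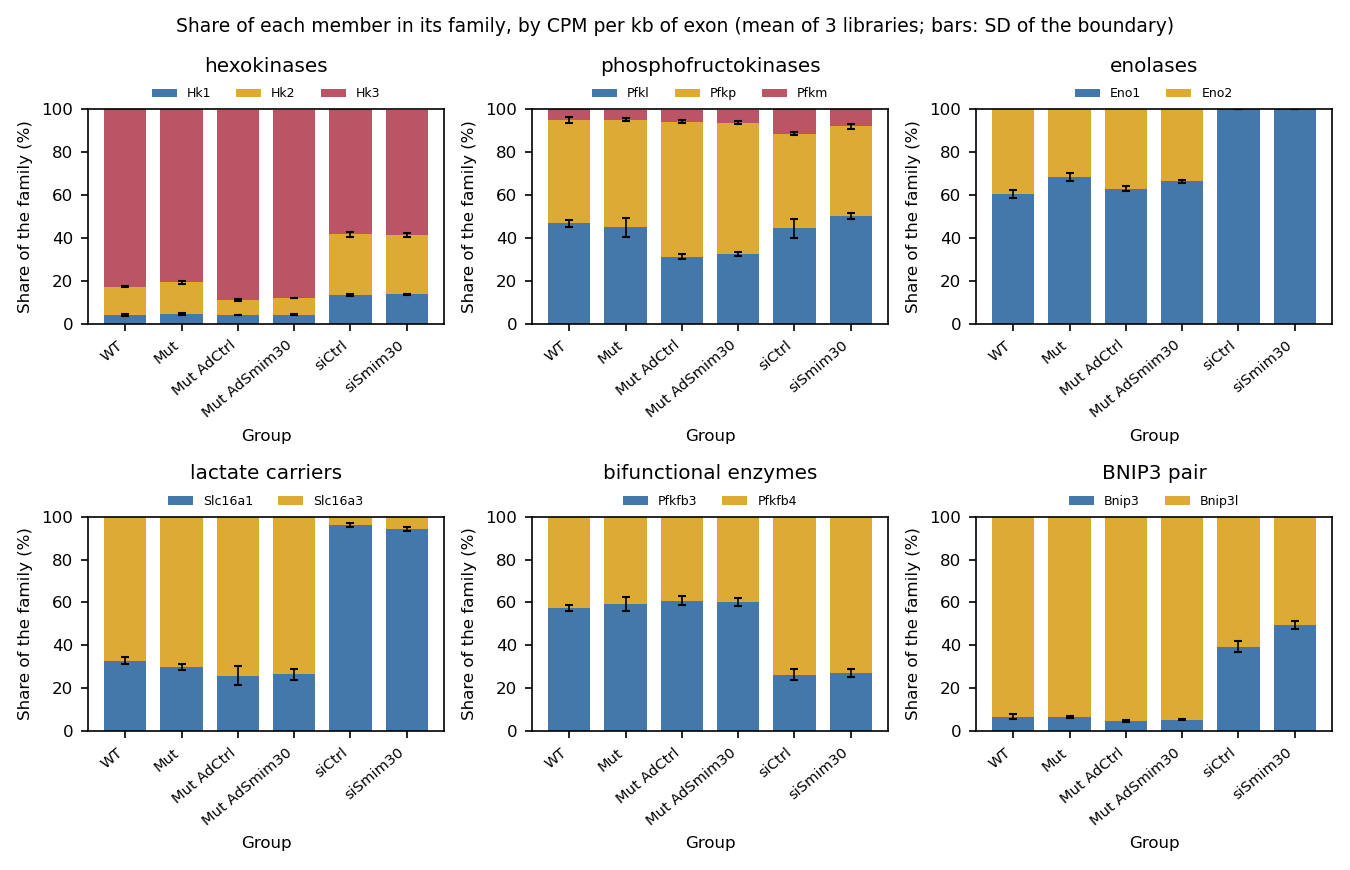
Stacked bars give each member's share of its family's summed RPKM, as the mean of 3 libraries per group, with the SD at each boundary. Slc16a1 is at 96.3 and 94.3% in siCtrl and siSmim30, above all primary groups, while the Pfkl share of siCtrl lies near those of WT and Mut.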

How the data were processed

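The data are 18 strand-specific libraries, grouped by their labels into 6 sets of 3. Per the file headers, the authors deposited unnormalised counts per gene, in which featureCounts 2.0.3 summed reversely stranded read pairs over the exons of GENCODE M25 (GRCm38); pairs that matched several places or 2 genes were not counted. Trimming with fastp, checks with FastQC and alignment with HISAT2 are per the submitters' processing notes. Symbols came from GENCODE M21 by identifier, found for 55141 of 55401. A second locus named Aldoa was left out. In all 18 files the library number in the header differs from that in the file's name, and samples were assigned by the series' record of its files.

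For each comparison edgeR 4.0.16 (R 4.3.3) was run on the libraries compared (filterByExpr, TMM scaling, robust quasi-likelihood F test, Benjamini-Hochberg at 0.05 over all genes tested). Interactions used 12 libraries. Printed CPM is per library total. The test was tested on simulated data with seeded changes. Alternatives were RLE scaling, no composition factor (added after seeing the data), no filter, DESeq2 1.42.0, a fit of all 18 libraries, a replicate block and leaving out each library. Named genes were all 33 members, with full values for those that passed in a perturbation or interaction test, Hif1a, Slc2a1, Hk2, Pfkfb3 and Ldha always, up to 6 changes each way in the other comparisons, and up to 3 called genes of each other list. The members and lists were chosen with earlier results of these data known. Depth was 6855245 to 13456857 pairs per library. Within groups, libraries differed beyond counting error (chi-square per gene 1.67 to 5.24). Promoters are RefSeq entries of GRCm38.p6. One gene of the further HIF-related list is not reported here by name.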

Additional observations from a re-analysis of the deposited data

Results flagged for a closer look

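The effect of the Smim30 mutation on Bnip3 in primary macrophages minus that of the siRNA in IC-21 was -0.69 on the log2 scale, by an interaction term of edgeR (SE 0.201, adjusted p = 0.0486), with the siRNA effect at 0.59 and the mutation effect at -0.10. In WT and Mut the gene had 5.31 to 7.95 CPM, and in IC-21 21.9 to 37.6 CPM. Without WT replicate 3, the highest of that group, the difference was -0.46 and the adjusted p was 0.324.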

How the results depend on the processing

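Counts of called genes moved as follows. In Mut against WT, a fit of all 18 libraries called 6 in place of 3, and leaving out 1 library gave 1 to 4. In Mut AdSmim30 against Mut AdCtrl, DESeq2 and the fit of all 18 libraries called 0 in place of 1, and leaving out 1 library gave 0 to 3. The mutation effect minus the siRNA effect had 0 in place of 1 with RLE scaling, no composition factor, no filter and DESeq2, which gave Bnip3 no adjusted p, and 0 to 2 with 1 library left out. Leaving out 1 library gave 6 to 10 with the siRNA, 19 to 21 for Mut AdCtrl against Mut, 28 to 30 for siCtrl against WT and 2 to 3 for the virus effect minus the mutation effect. Without the composition factor, siCtrl against WT had log2 changes of the other sign for Slc2a1 (0.02), Hk1 (0.27), Gpi1 (0.70), Pfkl (0.59), Pfkp (0.51), Aldoa (0.49), Pfkfb4 (0.007) and Eno1 (0.14). Of single-gene results under an alternative, 2961 kept their direction and side of the threshold or passed in neither fit, 49 lost it, 29 gained it and 8 reversed. The cause of these shifts was not tested.

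Replicate numbers did not pair the samples: same-numbered libraries had correlations of deviations of -0.148 to 0.087. With the replicate block, 8 genes passed with the siRNA in place of 7 and 2 in place of 3 for the virus effect minus the mutation effect, and the other counts stayed at 3, 1, 21, 28 and 1. Genes of few counts, such as Ankrd37, Pfkm and P4ha2, had wide intervals at this depth.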
